A study of Rattus norvegicus with 2 samples.

Results

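The genes described here encode the small Maf proteins (Mafk, Maff and Mafg), the related basic leucine zipper factors Nfe2, Nfe2l1, Nfe2l2, Nfe2l3, Bach1 and Bach2, and Keap1, which controls one of them. They were chosen by name, and all 10 are among the 18156 genes of a piggyBac insertion table from rat haploid embryonic stem cells (haESCs). Mafk is also among the genes that the study picked from this same screen, so its values are a description. A total of 9 genes held at least 10 insertions over both libraries and were thereby measured, and Nfe2 held none. Bach1 and Nfe2l3 met this minimum only through the library in which they were high, so the number that met it supports no statement about the group.

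Small Maf proteins carry a basic region and a leucine zipper but no transactivation domain. They bind DNA as dimers, either with each other, which represses, or with a partner of the cap'n'collar type, and the partner decides the outcome. NRF2, encoded by Nfe2l2, activates antioxidant and detoxifying genes with them, BACH1 and BACH2 repress through the same DNA elements, and heme releases BACH1 from DNA. In unstressed cells KEAP1 hands NRF2 to a cullin ubiquitin ligase, so that the protein is short-lived. NRF1, encoded by Nfe2l1, is made at the endoplasmic reticulum and is known for restoring proteasome genes when the proteasome is inhibited.

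The cells were of the line RAH-1 with green fluorescent protein (GFP) behind Rex1, a marker of naive pluripotency, and all cells of both groups carried this reporter and a mutagenic transposon with a splice acceptor and a red fluorescent protein. The group after screening (library PB-Diff) consisted of GFP-positive cells that were sorted from a randomly differentiated mutant culture and returned to 2i/LIF medium on feeder cells, and the group before screening (library PB-Ctrl) of the mutant cells before differentiation. Each group had 1 library, so no difference below has a replicate check or a p-value. The libraries held 1287231 insertions in genes after screening and 1528935 before it, and all cells came from 1 haploid line, which limits what either group stands for.

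For each gene the number of insertions was divided by all insertions in genes of its library, and the fold is that share after screening over that before. Brackets hold 95% intervals for counting error only, which are narrower than the true uncertainty where PCR products of 1 event were counted more than once. These are insertions in DNA, and none of the values is a transcript level. The counts address no cell type marker, so the label of the cells could not be checked.

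Insertions in Mafk were far more frequent after screening. Mafk (ENSRNOG00000001277) held 516 insertions after screening, against 59 before. This was 401 against 38.6 per 1000000 insertions in genes, or 10.4-fold higher (7.92 to 13.8). Mafk ranked 422 among all genes by insertions after screening and 5555 before.

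Its paralogs differed less between the libraries. Maff (ENSRNOG00000012886) held 84 insertions after screening, against 22 before, 4.54-fold higher (2.81 to 7.62). Mafg (ENSRNOG00000036697) held 190 after screening, against 158 before, and its share was 1.43-fold higher (1.15 to 1.78). By fold Mafk was highest and Mafg lowest. With 1 library per group, and Mafk picked by the study from this screen, this order is a description. Together the small Maf genes held 790 insertions after screening and 239 before (3.93-fold, 3.39 to 4.56). Without Mafk they held 274 and 180 (1.81-fold, 1.49 to 2.19). Mafk thus made up 65.3% of the small Maf insertions after screening, against 24.7% before.

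**Figure D1:**
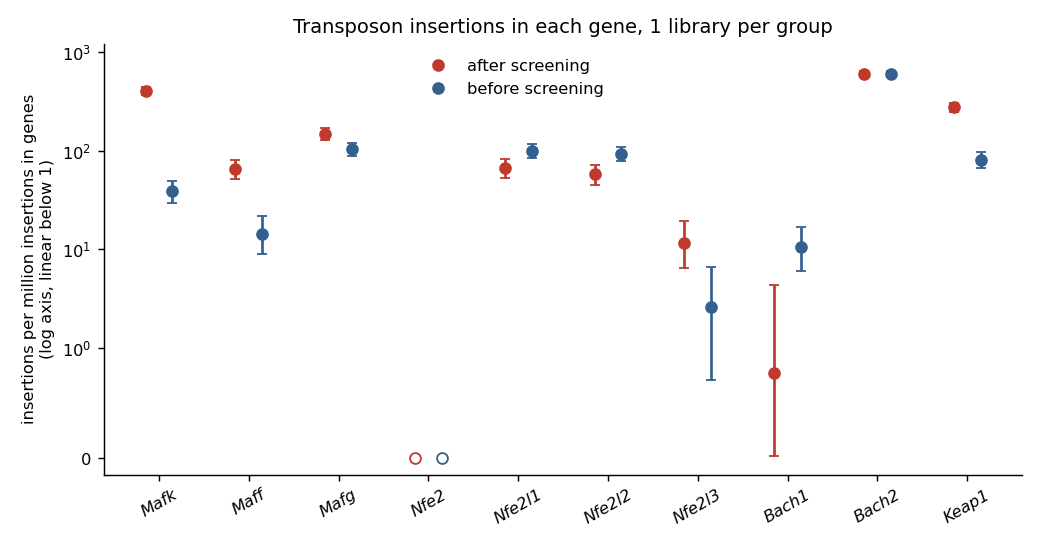
Insertions per 1000000 insertions in genes (log axis, linear below 1) for each of the 10 genes after and before screening, 1 library each, with exact Poisson 95% intervals of the count; open circles mark a count of 0. Mafk stands at 401 after and 38.6 before screening, Bach2 at 591 and 602, and Nfe2 at 0 in both.

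Keap1 and its substrate gene differed in opposite directions. Keap1 (ENSRNOG00000020878), which encodes the sensor and ligase adaptor of NRF2, held 352 insertions after screening, against 124 before, 3.37-fold higher (2.74 to 4.17). Nfe2l2 (ENSRNOG00000001548) held 74 after screening, against 141 before, 1.60-fold lower (1.20 to 2.16). The interval of Nfe2l2 excludes 1, but 37.5% of the measured genes of the table had a lower log2 ratio.

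Of the other cap'n'collar genes, Nfe2l1 (ENSRNOG00000008830) held 85 insertions after screening, against 153 before, 1.52-fold lower (1.16 to 2.0). Nfe2l3 (ENSRNOG00000010886), whose product NRF3 is less studied, held 15 after screening and 4 before. Its share was 4.45-fold higher, with a wide interval (1.42 to 18.4). Nfe2 (ENSRNOG00000036837), the erythroid and megakaryocytic factor from which the group is named, had 0 insertions in both libraries. A count of 0 allows up to 2.33 insertions per 1000000 after screening and 1.96 before. Over these 4 genes the counts were 174 after screening and 298 before (1.44-fold lower, 1.19 to 1.75).

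The Bach genes lay far apart. Bach2 (ENSRNOG00000006170), known from B cell differentiation, held the most insertions of the 10 genes, 761 after screening and 921 before. Its share was 1.02-fold lower after screening, with an interval that includes 1 (0.925 to 1.12). Bach1 (ENSRNOG00000001582), the repressor of the heme oxygenase gene, held 1 insertion after screening, against 16 before (13.5-fold lower, 2.09 to 565). The single insertion leaves the size of this difference almost undetermined.

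A rule of size was applied to all genes, with a share at least 4-fold higher or lower and an interval that excludes 1. Of the 9 measured genes, Mafk, Maff and Nfe2l3 were called higher and Bach1 lower. Of all 11976 measured genes 19.5% were called higher and 21.7% lower. With insertion counts halved, since 1 site may be counted in both orientations, Nfe2l3 and Bach1 no longer met the rule. By fold alone, 4 of the 9 reached 2-fold in the higher direction (the same 3 and Keap1) and 1 in the lower, where 31.5% of the measured genes of the whole table reached it upward and 32.4% downward. The counts for these genes are small beside such shares, and nothing is read from them about the group as a whole. The log2 ratio of Mafk was above that of 88.8% of the measured genes, that of Maff above 82.1%, that of Nfe2l3 above 81.0% and that of Keap1 above 78.3%. That of Bach1 was above 14.2%. A total of 1397 measured genes had a larger fold than Mafk.

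**Figure D2:**
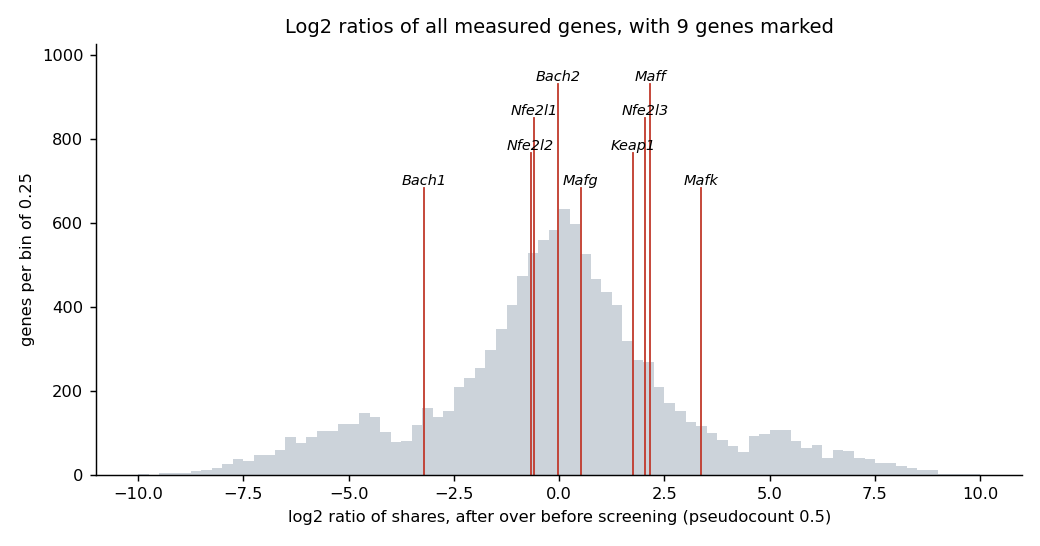
Histogram of the log2 ratio of shares, after over before screening, of all 11976 measured genes (number of genes per bin of 0.25), with lines at the 9 measured genes of the group. Mafk lies at 3.37, Maff at 2.16, Bach2 at -0.03 and Bach1 at -3.21, all inside the range of the other genes.

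The make-up of the insertions was then compared within each gene, which does not depend on library totals. The table counts forward and reverse insertions, which leave some out, and disrupting insertions. In most genes the disrupting count equals all insertions less the reverse ones, and there the insertions with no counted orientation are read as insertions in exons. A gene trap in an intron acts mainly in the forward orientation, whereas an exon insertion interrupts the transcript in either.

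In Mafk the make-up differed between the libraries. Of its insertions 413 of 516 were disrupting after screening, against 28 of 59 before, or 80.0% (76.3 to 83.4) against 47.5% (34.3 to 60.9). The difference lay in exon insertions, with 295 after screening and 2 before. These were 229 against 1.31 per 1000000 insertions in genes, a 175-fold higher share (48.1 to 1453) that rests on the 2 insertions before screening. Insertions with a counted orientation numbered 221 after screening and 57 before, 4.61-fold higher (3.43 to 6.28). Exon insertions accordingly made up 57.2% of Mafk insertions after screening (52.8 to 61.5), against 3.39% before (0.413 to 11.7). Disrupting insertions alone gave Mafk a fold of 17.2 (11.7 to 26.2).

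Few of the genes that could be compared differed in make-up in this way, a description without a test. With at least 20 insertions in each library 6128 genes could be compared, among them 7 of the 10. The interval of the disrupting share after screening lay wholly above that before in 1 of the 7, Mafk, and wholly below in 0, where the same was true of 2.97% and 2.24% of all genes compared. Of the 2338 genes called higher only 411 could be compared, and it was true of 9 of these (2.19%), Mafk among them. At counts near 20 the intervals are wide, so that fewer genes could differ by this rule. In 65 of 5985 genes with readable exon counts (1.09%) the exon share was higher after screening by at least as many percentage points as in Mafk, where the difference was 53.8.

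**Figure D3:**
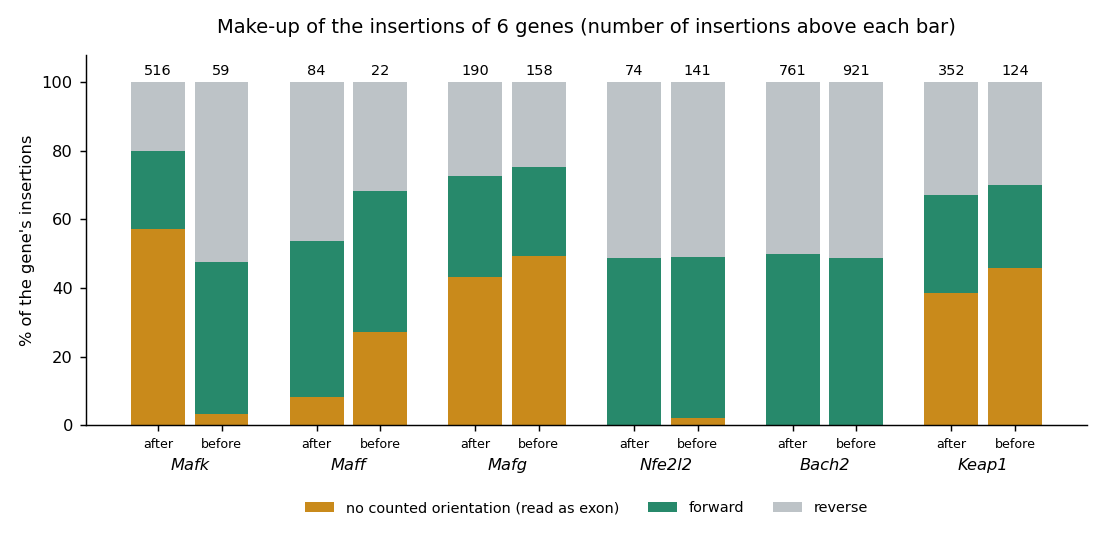
Percent of a gene's insertions with no counted orientation (read as exon insertions), in forward and in reverse orientation, after and before screening, for 6 genes with readable exon counts and at least 20 insertions in each library; numbers above the bars are insertions. The exon part of Mafk is 57.2% after and 3.39% before screening, whereas that of Mafg is 43.2% and 49.4%.

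The other small Maf genes did not share this. Mafg had 138 of 190 disrupting insertions after screening, 72.6% (65.7 to 78.8), against 119 of 158 before, 75.3% (67.8 to 81.8). Its exon insertions numbered 82 after screening and 78 before. In Maff 45 of 84 were disrupting after screening, 53.6% (42.4 to 64.5), against 15 of 22 before, 68.2% (45.1 to 86.1). Exon insertions numbered 7 after screening and 6 before, so that its higher count lay in insertions of counted orientation, 77 against 16 (5.72-fold, 3.31 to 10.5). Insertions of counted orientation were therefore higher after screening in both Maff and Mafk. The exon insertions of Maff were too few to tell (1.39-fold, 0.399 to 4.99). In disrupting insertions alone Maff was 3.50-fold higher (1.91 to 6.75), under the 4-fold rule.

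The make-up of Keap1 did not differ beyond its intervals, with 236 of 352 disrupting insertions after screening, 67.0% (61.9 to 71.9), against 87 of 124 before, 70.2% (61.3 to 78.0). Exon insertions were 136 after screening and 57 before (2.83-fold, 2.07 to 3.93). Those of counted orientation were 216 and 67 (3.83-fold, 2.90 to 5.12). Both classes were thus higher after screening. Disrupting insertions gave 3.16-fold (2.46 to 4.09).

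In Bach2 and Nfe2l2 nearly all insertions had a counted orientation. Bach2 had 0 exon insertions in both libraries, with 381 of 761 insertions disrupting after screening, 50.1% (46.5 to 53.7), against 449 of 921 before, 48.8% (45.5 to 52.0). Nfe2l2 had 0 exon insertions after screening and 3 before, and 36 of 74 insertions were disrupting after screening, against 69 of 141 before. Its disrupting insertions alone were 0.608-fold the share before screening (0.395 to 0.922). Neither gene differed in make-up beyond its intervals. For Bach1 the 1 insertion left after screening was a reverse one, so its disrupting insertions were 0 after screening and 8 before. In Nfe2l3 8 of 15 insertions were disrupting after screening, against 2 of 4 before, and the interval of this fold included 1 (4.66-fold, 0.930 to 45.0).

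Nfe2l1 was counted in another way than the rest. Only 0 of its 85 insertions after screening and 2 of 153 before had a counted orientation, yet 41 and 75 were disrupting. The remaining 44 and 78 were neither disrupting nor oriented, so no exon share was taken from this gene. Of the 6181 genes with at least 100 insertions, 40 had under 5% of insertions oriented and a disrupting count of this kind in both libraries. The disrupting share of Nfe2l1 was 48.2% after screening (37.3 to 59.3) and 49.0% before (40.9 to 57.2).

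**Figure D4:**
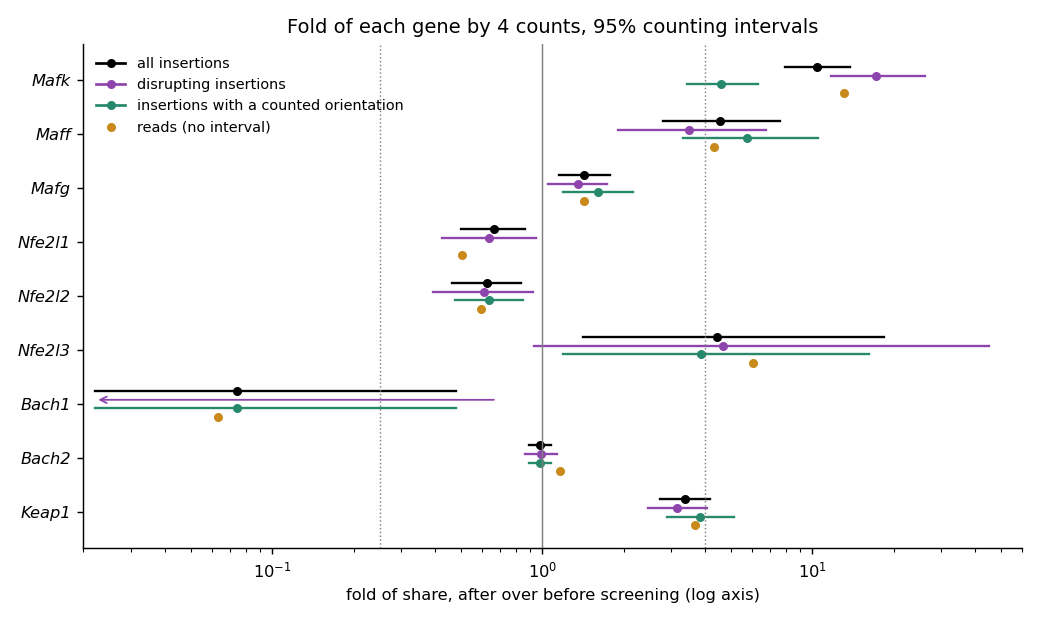
Fold of share, after over before screening (log axis), of 9 genes by all insertions, disrupting insertions, insertions with a counted orientation and reads; lines are 95% counting intervals, dotted lines mark 4-fold, and the lower ends for Bach1 run past the axis, its disrupting count after screening being 0. Mafk is 10.4 by all insertions, 17.2 by disrupting ones and 4.61 by those with an orientation, while Mafg lies between 1.35 and 1.60; Nfe2l1 has no point for oriented insertions.

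The counted orientations were near balance. Over the 10 genes 735 of 1471 oriented insertions were forward after screening (49.97%), against 632 of 1301 before (48.6%). The exact binomial interval of the forward share included 50% in all 17 combinations of gene and library with an oriented insertion. Bach1 after screening, Nfe2l1 before and Nfe2l3 before had 1, 2 and 4 oriented insertions, too few to exclude 50% with any outcome. In Mafk the forward share was 53.4% after screening (46.6 to 60.1), against 45.6% before (32.4 to 59.3). In several of these genes the counts of the 2 orientations nearly matched, for example 381 and 380 in Bach2 after screening and 8 and 8 in Bach1 before. Whether 1 site was counted in both orientations was not tested, so the balance is not read as a property of the insertions.

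Reads followed insertions closely in most of the genes. Mafk had 796 reads after screening, against 73 before, 1.54 against 1.24 reads per insertion. This ratio of 1.25 was reached by 5.73% of the 6128 genes compared, whose median was 0.97. Bach2 had 1193 reads after screening and 1231 before, or 1.57 and 1.34 per insertion. In reads its share was 1.16-fold higher, while in insertions it was 1.02-fold lower. Nfe2l1 had 95 reads after screening and 227 before, 1.12 and 1.48 per insertion, and was 1.99-fold lower in reads. Keap1 had 522 and 171 reads (3.67-fold), Maff 101 and 28 (4.33-fold), Mafg 249 and 210 (1.42-fold), Nfe2l2 92 and 187 (1.69-fold lower) and Nfe2l3 20 and 4. Of these genes, Bach2 alone had a read ratio on the other side of 1 than its insertion ratio.

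Neighbouring genes were read off assembly GRCr8, used only for gene order. The nearest listed neighbours of Mafk were Tmem184a on one side, with 160 insertions after screening and 98 before (1.94-fold, 1.5 to 2.52), and Uncx on the other, with 4 and 39 (8.21-fold lower, 2.96 to 31.6). The next were Elfn1, with 72 and 227, and Zfand2a, with 0 and 148. None of these 4 approached the fold of Mafk, and 3 were lower. Uncx and Zfand2a met the minimum only through the library before screening, so nothing is read from the neighbours of Mafk about its region. Keap1 lay between Pde4a and S1pr5. Pde4a held 74 insertions after screening and 131 before (1.49-fold lower, 1.11 to 2.01), and S1pr5 14 and 0 (at least 3.94-fold higher by its interval). Beyond these, Cdc37 held 35 and 65 and Atg4d 24 and 1 (28.5-fold higher, 4.65 to 1172). S1pr5 and Atg4d met the minimum only through the library after screening, so nothing is read from these neighbours about the region. Mafg lay between Sirt7, with 21 and 97, and Pycr1, with 48 and 189, both lower after screening, by 3.89-fold (2.41 to 6.56) and 3.32-fold (2.40 to 4.65), while Pcyt2 beyond Sirt7 held 58 and 21 (3.28-fold higher). Beside Bach1, Map3k7cl held 20 insertions after screening and 2 before (11.9-fold higher, 2.89 to 105) and Grik1 100 and 408. Cct8, beyond Map3k7cl, held 70 and 84 (0.99-fold, 0.71 to 1.38). Map3k7cl met the minimum only through the library after screening, so nothing is read from it. Neighbours of the remaining genes of the group are not reported here. In that assembly Mafk overlaps the noncoding locus LOC102546414, Bach1 the pseudogene Ndufa7-ps1 and Bach2 the noncoding locus LOC120102849. None of these is listed in the table, and insertions in a shared stretch can belong to either.

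The genes most like Mafk were sought among 6181 genes with at least 100 insertions, by the Euclidean distance over 3 log2 ratios (insertions, disrupting insertions and reads) of the 2 libraries. Mafk itself stood at 3.37, 4.08 and 3.70. Nearest were Zfp746 at a distance of 0.11, Slc19a1 at 0.207 and Urgcp at 0.325. Zfp746, a zinc finger protein gene, held 187 insertions after screening and 20 before, of which 112 and 0 were read as exon insertions. Urgcp held 185 and 24, with 180 and 1 in exons. Slc19a1, the reduced folate carrier gene, held 138 and 17, and its exon insertions could not be read. So 2 of the 3 shared with Mafk an excess of exon insertions after screening, and the disrupting ratio used for the distance already depends on them.

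Other genes of the pathway were taken from lists of known members. For comparison the median log2 ratio of all measured genes was -0.01, and 0.51 in the 9 measured genes of the group. The counts below are to be read beside the whole table, where 31.5% of measured genes reached 2-fold upward and 32.4% downward, and 19.5% and 21.7% met the 4-fold rule. Of 16 measured genes for the turnover and partners of NRF2, 3 reached 2-fold in the higher direction and 7 in the lower (median -0.82). Rbx1, the RING subunit of cullin ligases, held 3 insertions after screening, against 59 before (16.6-fold lower, 5.40 to 82.6). Cul1, the scaffold of another such ligase, held 50 after screening, against 8 before (7.42-fold higher, 3.49 to 18.1). Amer1, whose product binds KEAP1 and also the beta-catenin destruction complex, held 0 after screening, against 17 before (at least 3.47-fold lower by its interval). Rbx1, Cul1 and Amer1 were named for the largest differences in the list. Each met the minimum only through the library in which it was high, so nothing is read from their directions about the ligases. Cul3, the cullin that KEAP1 uses, was not measured, with 1 insertion after screening and 0 before, and is named here after its values were seen.

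Of 18 measured antioxidant and detoxification targets of NRF2, 4 reached 2-fold upward and 10 downward (median -1.07). By the 4-fold rule 2 were higher and 4 lower. Gstp1, a glutathione transferase, held 0 insertions after screening and 106 before (at least 23.8-fold lower), and Srxn1, sulfiredoxin, 0 and 67 (at least 14.9-fold lower). The 2 targets called higher were Gpx2, a glutathione peroxidase, and Gclc, the catalytic subunit of the first enzyme of glutathione synthesis. Gpx2 held 25 insertions after screening and 0 before (at least 7.47-fold higher), and Gclc 15 and 0 (at least 4.26-fold higher). These were named after their values were seen. Each bound is a limit of the counting interval of that gene. Gsr, glutathione reductase, held 1 insertion after screening and 144 before (121-fold lower, 21.4 to 4821). Gstp1, Srxn1 and Gsr were named for the largest differences in the list. All the targets named here met the minimum only through the library in which they were high. Nothing is therefore read from their directions about the targets of NRF2. Reads of glutathione transferase genes can be shared with related copies, so the counts of Gstp1 are uncertain. How many sites or clones these insertions stand for was not measured, and no test sets this list apart from other genes.

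Of 11 measured genes of heme handling and BACH1 turnover, 4 reached 2-fold upward and 2 downward (median 0.10). Uros, of heme synthesis, held 81 insertions after screening and 4 before (24.1-fold higher, 9.04 to 90.4), and Alad, an earlier enzyme of that pathway, 26 and 1 (30.9-fold higher, 5.07 to 1266). Alas1, which catalyses its first step, held 20 after screening and 103 before (4.34-fold lower, 2.67 to 7.39). Uros, Alad and Alas1 were named for the largest differences in the list. Uros and Alad met the minimum only through the library after screening, so nothing is read from these directions about the pathway. Of 5 measured genes for the processing of NRF1, 0 reached 2-fold upward and 1 downward (median -0.20), and 0 met the 4-fold rule in either direction.

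Among related leucine zipper genes, 4 of 11 measured AP-1 and ATF genes reached 2-fold upward and 2 downward (median 0.65). Jun held 93 insertions after screening and 7 before (15.8-fold higher, 7.36 to 40.3). Junb held 171 and 44 (4.62-fold higher, 3.30 to 6.58). All insertions of these AP-1 subunit genes, both without introns, were counted as disrupting in each library. Atf2 held 43 after screening and 6 before (8.51-fold higher, 3.61 to 24.5), with 18 and 3 disrupting. Jun, Junb and Atf2 were named for the largest differences in the list. Jun and Atf2 met the minimum only through the library after screening, so nothing is read from these directions about the family.

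**Figure D5:**
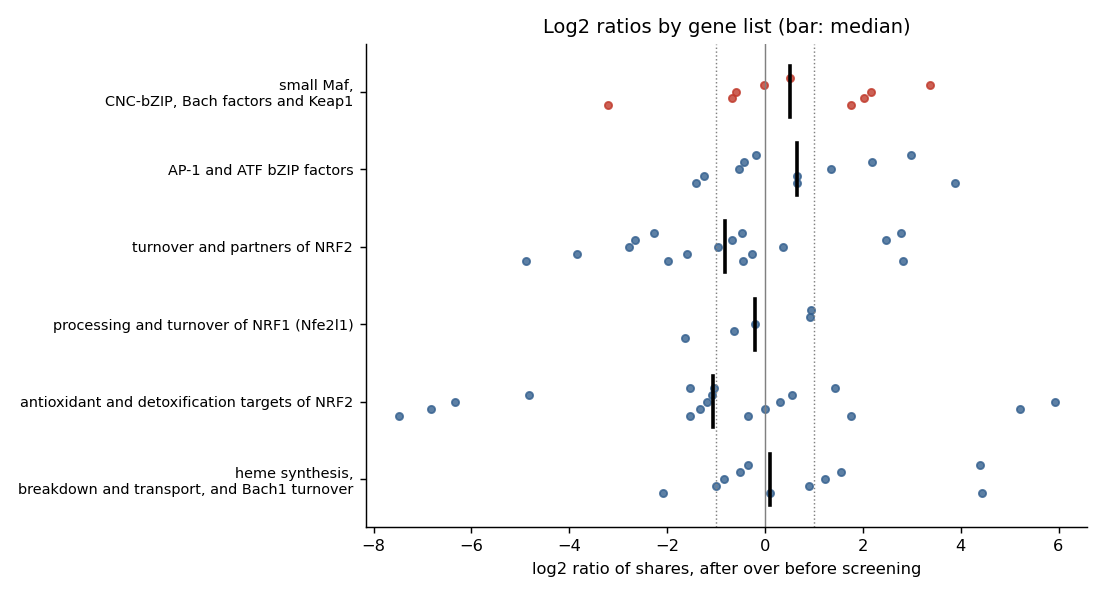
Log2 ratio of shares, after over before screening, of each measured gene in 6 lists (points) with the median of the list (bar); dotted lines mark 2-fold. The median is 0.51 for the small Maf, Bach and NRF group, -1.07 for the targets of NRF2 and 0.65 for AP-1 and ATF genes, and every list with more than 5 genes holds points on both sides of 0.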

How the data were processed

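Splinkerette PCR products of 1 library after and 1 before screening had been sequenced. Per the methods, the authors removed adapters and transposon tags with the FASTX toolkit and ran HaSAPPy to align reads and assign insertions to genes, at versions that are not given in the sources used here. HISAT2 2.0.5 and featureCounts 1.5.0-p3 stand in the submitters' processing notes, and the labels describe an RNA preparation, while the table holds insertions. The methods name a mouse assembly and the table rat identifiers, so no position is printed. The authors deposited raw counts of insertions, disrupting, forward and reverse insertions and reads. The methods do not explain the 2 at the end of the column names. Columns holding repeated sums, orientation bias, ranks, annotation, the authors' folds and a Fisher score were not used (36 of 48).

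Python 3.11.15 with numpy 2.4.6, pandas 2.3.3 and scipy 1.17.1 gave ratios of shares across all genes with exact Clopper-Pearson 95% intervals of the conditional binomial share. The unassigned entry, 57.9% of insertions after and 57.3% before screening, stayed out. Log2 ratios used a pseudocount of 0.5, and a count of 0 a floor of 3 per library. Folds given as at least a value are the limit of the 95% interval nearest to 1. The code was tested on simulated data.

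Named were all 10 genes, up to 3 genes per other list with the largest absolute log2 ratio past the 4-fold rule, and 3 genes nearest to Mafk. Genes named by position next to a member, and Cul3, Gpx2 and Gclc, were added afterwards. The result of 1 further list is not reported here. The members and lists were chosen with earlier results of these data known. Alternatives were other counts, scalings, minimums, fold rules and pseudocounts.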

Additional observations from a re-analysis of the deposited data

How the results depend on the processing

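No paired analysis was possible because there was a single library per group, and for the same reason no library could be left out. Of 62 log2 ratios of the 9 measured genes under 7 alternatives, 61 kept their side of 0 and 59 stayed inside the counting interval. Most alternatives reuse the same insertions, so this is no evidence of stability. The ratio of Mafk was 4.08 by disrupting insertions and 2.19 by oriented insertions only, against 3.37 by all. The alternative of oriented insertions was chosen after seeing the data. By construction these counts differ in their treatment of insertions with no counted orientation, which are read as exon insertions. The ratio of Bach2 was 0.22 by reads against -0.03, and the cause was not tested. Scaling by the median ratio shifted every log2 ratio by -0.11. It ended no call among the 9 genes, and over all genes 2223 were then called higher and 2700 lower, against 2338 and 2600. Of the 3 genes called higher, 1 was still called by disrupting insertions (Mafk), and the gene called lower, Bach1, was lost with halved insertions and with at least 50 insertions, leaving 0. Across all genes, 1300 were called higher and 1466 lower with at least 50 insertions, because fewer were tested, and 3639 higher with the 2-fold rule. Over all other lists, including the list not reported, 9 reached 2-fold upward and 13 downward with at least 50 insertions, against 16 and 22. The forward share of oriented insertions was set against the disrupting share. It was 53.4% for Mafk after screening, 51.9% after and 51.2% before for Mafg, and 46.3% and 44.8% for Keap1. These are lower than the disrupting shares because insertions with no counted orientation are left out. Depth limits Bach1, Nfe2l3 and Nfe2 most.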
